A study of Mus musculus with 2 samples.

Results

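Macrophages meet lipid as free fatty acid, as modified lipoprotein and as dead cells, and they take it up, bind it, store it or pass it on. Scavenger receptors and lipases bring it in, fatty acid binding proteins carry it inside the cell, perilipin coats the droplets that hold it, and sterol transporters load it onto apolipoproteins that leave the cell. In fatty liver disease, macrophages that gather around lipid-laden and dying hepatocytes are known to run this program strongly, and they are often called lipid-associated macrophages (LAMs). The 10 genes described here were chosen by name for their place in that route, out of 25909 genes in the count matrix. The choice was made with earlier results of these data known. Counts of members set beside the share of all genes therefore describe the members and do not test them. They are Trem2, a receptor that senses lipids and apoptotic cells; Cd36, Lpl and Msr1, which act in uptake; Fabp5 and Fabp4, which bind fatty acids; Plin2, which coats lipid droplets; and Apoe, Abca1 and Abcg1, which act in cholesterol efflux. All 10 were found in the matrix by symbol, and none of them was used to gate the cells.

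The study asked how deletion of the transcription factor Egr2 in myeloid cells changes liver macrophages in steatohepatitis. Single-cell RNA sequencing (TAS-Seq on the BD Rhapsody platform) was run on sorted CD45.2+ lineage-negative CD11b+ liver cells of 4 mice, pooled after staining each mouse with its own hashtag antibody. The hashtags A951 to A954 stand for ND-fed Egr2fl/fl, ND-fed Lyz2Cre/+.Egr2fl/fl, CDA-HFD-fed Egr2fl/fl and CDA-HFD-fed Lyz2Cre/+.Egr2fl/fl mice. All 4 mice carried the floxed Egr2 alleles, and 2 of them also carried 1 copy of Lyz2-Cre, in which the Lyz2 locus drives Cre in myeloid cells, neutrophils included. ND is a normal diet, and CDA-HFD is a high-fat diet without choline and with defined amino acids, which was given for 7 weeks. From each ND-fed mouse 3000 cells were loaded and from each CDA-HFD-fed mouse 9000, so the number of barcodes per mouse does not measure cells per liver. The sentence of the labels on cell numbers names A964 where the other labels name A954, and A954 was used for that mouse. The labels give no age for these animals. Each combination of genotype and diet is 1 mouse, so no difference between mice was tested, and no spread between animals can be given.

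The 4 mice gave 32034878, 27847027, 85242656 and 90135326 counts in 1724, 1592, 5889 and 6189 barcodes, in the order of their hashtags. The median counts per barcode were 16447, 15842, 13166 and 13475. No barcode number was shared between mice. A gene's level was its share of all counts summed over the cells of 1 class in 1 mouse, given as CPM, a scale on which the counts of all genes in the sum add up to 1 fixed total. Intervals are exact 95% Poisson intervals for levels and exact binomial-split intervals for ratios. They cover counting error only, neither the variation between animals nor repeated reads of 1 molecule. Where values come as a pair, the Egr2fl/fl mouse is first and the Lyz2Cre/+.Egr2fl/fl mouse second. A ratio counts as higher or lower when it is at least 1.5 or at most 1/1.5, the fold used throughout. Effects of other ways of processing are named beside the values: a stricter gate (1 more marker and a firmer C1q rule), unsupervised clusters named by the same markers, the mean over cells in place of the sum, TMM scaling, and filters on cells. A further one, chosen after the values were seen, leaves out of each sum the 1% of cells (at least 1) with the most counts of the gene in question. It can take a larger part of a sum in which few cells hold the gene, and so can itself move a ratio away from 1. All of these ways were run for 237 member ratios, except that clusters and the filter of at least 90% own hashtag gave 217 each. The 237 ratios lie between diets in 4 classes, between classes, and between genotypes in Kupffer cells on ND and 5 classes on CDA-HFD. Other ND genotype ratios and Egr2 were recomputed only in the last way. Ratios of neutrophils, of dendritic cells, and of CDA-HFD Kupffer-like macrophages against ND Kupffer cells were not recomputed.

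Egr2 itself, the deleted gene, was read first. Over all cells of a mouse it stood at 13.3 CPM (12.0 to 14.6) and 5.85 CPM (4.99 to 6.82) on ND and at 49.4 CPM (47.9 to 50.9) and 18.2 CPM (17.4 to 19.1) on CDA-HFD. Both Lyz2Cre/+.Egr2fl/fl mice were below the Egr2fl/fl mouse on the same diet, and the CDA-HFD-fed Egr2fl/fl mouse was highest. In Kupffer cells on ND, Egr2 was at 5.23 and 1.06 CPM, a Lyz2Cre/+.Egr2fl/fl over Egr2fl/fl ratio of 0.2025 (0.117 to 0.334). On CDA-HFD the same ratio was 0.214 (0.1745 to 0.261) in LAM-gated macrophages, 0.0830 (0.0441 to 0.145) in Kupffer-like macrophages and 0.286 (0.249 to 0.329) in the remaining macrophages. It was 0.362 (0.304 to 0.429) in Ly6Chi monocytes and 0.244 (0.118 to 0.463) in Ly6Clo monocytes. Without the top 1% of cells these CDA-HFD ratios came to 0.164, 0.0405, 0.154, 0.266 and 0.0413 in the same order, all further from 1. That step can take a larger part of the sparser sum, so the shift cannot be read as a larger difference. The last ratio had 1 Egr2 count left in the Lyz2Cre/+.Egr2fl/fl mouse. Egr2 counts were therefore reduced but not absent in these classes. On ND the level was 38.8 and 0 CPM in Kupffer-like and 47.9 and 4.24 CPM in remaining macrophages. Without the top 1% of cells, 1 in each sum, Kupffer-like macrophages held 9.78 and 0 CPM, from 6 and 0 counts. Remaining macrophages then held 40.2 and 1.08 CPM, from 70 and 1 counts. In ND-fed Ly6Chi monocytes the levels were close, at 6.90 and 5.85 CPM, but they rest on few cells. Without the top 1% of cells, 1 in each mouse, they came to 3.23 and 0.988 CPM, from 5 and 1 counts. In ND-fed Ly6Clo monocytes the ratio was 1.80, and without 1 cell in each mouse no Egr2 count was left. In dendritic cells, Egr2 was at 40.5 and 30.2 CPM on ND and 43.5 and 40.7 CPM on CDA-HFD, a difference that passed the fold on neither diet.

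Cells were gated by marker genes, a marker being on in a cell at 100 CPM or more. Macrophages had at least 2 of C1qa, C1qb and C1qc on. Those with Timd4 and at least 5 of 9 Kupffer markers on are called Kupffer cells; those without Timd4 but with at least 3 of 7 markers shared with Kupffer cells (Cd5l, Cd207, Clec1b, Il18bp, Vsig4, Clec4f, Vcam1) are called Kupffer-like macrophages. Of the rest, those with at least 5 of 10 LAM markers (Gpnmb, Spp1, Cd9, Itgax, Mmp12, Atp6v0d2, Ctsk, Cd63, Lgals3, F10) are called LAM-gated, and the others the remaining macrophages. Ly6Chi monocytes had Ly6c2 and at least 4 of 8 markers on, and Ly6Clo monocytes at least 5 of 8. Classes with under 30 cells in a mouse were not compared.

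Kupffer cells numbered 721 and 771 on ND and only 5 and 8 on CDA-HFD, so they were read on ND alone. LAM-gated macrophages numbered 5 and 3 on ND and 513 and 306 on CDA-HFD, and were read on CDA-HFD alone. There were 49 and 66 Kupffer-like macrophages on ND and 106 and 154 on CDA-HFD. The remaining macrophages numbered 112 and 68 on ND and 734 and 1019 on CDA-HFD. Ly6Chi monocytes numbered 118 and 78 on ND and 939 and 1105 on CDA-HFD, and Ly6Clo monocytes 121 and 68 and then 273 and 258. Of all barcodes, 4225 passed no gate (27.4%). Many cells lay at the edge of a gate: 216 and 194 CDA-HFD LAM-gated macrophages had just 5 LAM markers on, and 235 and 285 macrophages had 1 fewer. Of the CDA-HFD Kupffer-like macrophages, 38 and 59 had just 3 markers on, while 70 and 99 cells had 1 fewer. For Ly6Chi monocytes on CDA-HFD, 407 and 524 cells were at the minimum and 587 and 656 were 1 below, and for Ly6Clo monocytes 228 and 251 were at it and 426 and 436 were 1 below.

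The next sums use the markers that set the gates, so they describe the classes and do not test them. The 9 Kupffer markers summed to 24210 and 26390 CPM in Kupffer cells and to 15560 and 15750 CPM in the Kupffer-like macrophages of ND-fed mice. On CDA-HFD the same sum was lower in Kupffer-like macrophages, at 4063 and 5665 CPM, but still far above the 110.5 and 239.8 CPM of LAM-gated macrophages. The 10 LAM markers summed to 9065 and 7436 CPM in LAM-gated macrophages, to 3846 and 3059 CPM in Kupffer-like and to 2687 and 2753 CPM in remaining macrophages on CDA-HFD. The Ly6Chi markers summed to 12620 and 11180 CPM on ND and 12600 and 13200 CPM on CDA-HFD in Ly6Chi monocytes. Of 7 hepatocyte markers in the matrix, Alb was at 0 in every one of these classes. Their sum was 75.3 and 179.5 CPM in Kupffer cells (most abundant Mup20 in the first mouse and Ttr in the second), 116 and 125 CPM on ND and 78.6 and 68.1 CPM on CDA-HFD in Kupffer-like macrophages, and 45.4 and 57.2 CPM in LAM-gated macrophages. In the remaining macrophages it was 23.4 and 15.9 CPM on ND and 39.4 and 66.1 CPM on CDA-HFD. Ly6Chi monocytes held 6.27 and 30.2 CPM on ND and 9.53 and 13.7 CPM on CDA-HFD, and Ly6Clo monocytes 15.1 and 17.45 and then 47.2 and 45.5 CPM. The part of hepatocyte RNA in the results was not tested.

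The receptor Trem2 binds lipids, lipoproteins and dying cells and signals through the adaptor Tyrobp. In Kupffer cells on ND it stood at 61.3 and 114 CPM. Kupffer-like macrophages held 85.6 and 222 CPM on ND and 884 and 783 CPM on CDA-HFD, and LAM-gated macrophages held 1034 and 1039 CPM. The CDA-HFD macrophages were all far above the ND-fed Kupffer cells, and the LAM-gated ones were highest. Remaining macrophages held 149.5 and 266 CPM on ND and 678 and 743 CPM on CDA-HFD. Ly6Chi monocytes held 60.2 and 84.8 CPM on ND and 159 and 245 CPM on CDA-HFD, and Ly6Clo monocytes 43.05 and 44.6 CPM on ND and 121 and 154 CPM on CDA-HFD. On CDA-HFD the order in both mice was LAM-gated, Kupffer-like, remaining, Ly6Chi and Ly6Clo, and the neighbouring pairs of values did not overlap, although Ly6Clo and Ly6Chi came close (154 in one mouse and 159 in the other).

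Cd36 is a scavenger receptor that takes up long-chain fatty acids and oxidised lipoproteins. It stood at 127 and 126.5 CPM in Kupffer cells on ND and at 899.5 and 877 CPM in LAM-gated macrophages on CDA-HFD. Kupffer-like macrophages held 126 and 105 CPM on ND and 532 and 593 CPM on CDA-HFD, and remaining macrophages held 46.2 and 43.4 CPM on ND and 280.3 and 339.9 CPM on CDA-HFD. In both kinds of macrophage the CDA-HFD-fed mice were high and the ND-fed mice low. Ly6Chi monocytes held only 13.2 and 9.75 CPM on ND and 50.1 and 87.0 CPM on CDA-HFD, and Ly6Clo monocytes held 412 and 405 CPM on ND and 302.5 and 394 CPM on CDA-HFD. The Ly6Clo values were high on both diets, and on CDA-HFD they overlapped those of the remaining macrophages. Neutrophils held 49.0 and 38.5 CPM on ND and 43.1 and 34.7 CPM on CDA-HFD, which is above the Ly6Chi level on ND and near or below it on CDA-HFD.

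Lpl encodes lipoprotein lipase, which frees fatty acids from triglyceride-rich lipoproteins. Its level was 821.5 and 849 CPM in Kupffer cells on ND and 2571 and 2968 CPM in LAM-gated macrophages. Kupffer-like macrophages held 601 and 698 CPM on ND and 1898 and 1947 CPM on CDA-HFD, and remaining macrophages held 148 and 131 CPM on ND and 995 and 1327 CPM on CDA-HFD. Kupffer cells were therefore already high on ND, whereas the remaining macrophages were low on ND and high on CDA-HFD. In Ly6Chi monocytes Lpl was at 182 and 301 CPM on ND and 261 and 429.6 CPM on CDA-HFD, the Lyz2Cre/+.Egr2fl/fl mouse being higher on both diets, though on ND 1 of its 78 cells held 34.95% of its 309 counts. In Ly6Clo monocytes it was at 90.4 and 50.4 CPM on ND and 133 and 249 CPM on CDA-HFD, with the Lyz2Cre/+.Egr2fl/fl mouse lower on ND and higher on CDA-HFD. In the ND-fed Egr2fl/fl mouse 1 of 121 such cells held 53.6% of the 84 counts, and the share of cells with an Lpl count was 18.2% and 20.6% on ND, before thinning. Msr1 encodes a class A scavenger receptor for modified lipoproteins. It was at 441 and 518 CPM in Kupffer cells, 418 and 496 CPM on ND and 416 and 461 CPM on CDA-HFD in Kupffer-like macrophages, and 295 and 296 CPM in LAM-gated macrophages. Remaining macrophages held 206 and 223.5 CPM on ND and 274.5 and 263 CPM on CDA-HFD. The Kupffer and Kupffer-like classes were highest for Msr1 on either diet, and LAM-gated macrophages stood only slightly above the remaining ones. Monocytes were lower, at 147 and 155 CPM on ND and 245 and 238 CPM on CDA-HFD for Ly6Chi and 80.7 and 34.9 CPM on ND and 75.2 and 91.4 CPM on CDA-HFD for Ly6Clo cells.

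Fabp5 carries fatty acids in the cytosol. It was at only 13.4 and 15.55 CPM in Kupffer cells on ND but at 938 and 686 CPM in LAM-gated macrophages. Kupffer-like macrophages held 22.6 and 27.9 CPM on ND and 393 and 267 CPM on CDA-HFD, and remaining macrophages held 108 and 81.6 CPM on ND and 290.3 and 206 CPM on CDA-HFD. In every macrophage class on CDA-HFD the Lyz2Cre/+.Egr2fl/fl mouse was the lower one. The Kupffer-like and remaining values overlapped on CDA-HFD, and LAM-gated macrophages stood above both. Ly6Chi monocytes held 58.3 and 26.3 CPM on ND and 125 and 89.4 CPM on CDA-HFD, and Ly6Clo monocytes 48.4 and 40.7 CPM on ND and 63.8 and 85.5 CPM on CDA-HFD. Both were below neutrophils, where Fabp5 was at 207 and 182 CPM on ND and 174 and 197 CPM on CDA-HFD.

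Fabp4 is the adipocyte-type relative of Fabp5. On ND it was at 7.735 and 6.74 CPM in Kupffer cells, and on CDA-HFD at 238.5 and 242.5 CPM in LAM-gated macrophages. Kupffer-like macrophages held 8.08 and 17.9 CPM on ND and 85.7 and 105 CPM on CDA-HFD, and remaining macrophages 12.0 and 12.7 CPM on ND and 69.5 and 81.7 CPM on CDA-HFD. Macrophage levels were low on ND and higher on CDA-HFD in both genotypes. Ly6Clo monocytes held 193 and 277 CPM on ND and 376 and 447 CPM on CDA-HFD, the highest Fabp4 level of any class compared on either diet. No Fabp4 count was found in ND Ly6Chi monocytes, where the Poisson interval reaches 2.31 and 3.60 CPM. On CDA-HFD they held 30.1 and 42.0 CPM, which is near the 45.3 and 35.0 CPM of neutrophils in the same mice. These Ly6Chi levels rest on few cells, and without the top 1% of cells they came to 6.355 and 19.2 CPM.

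Plin2 coats cytosolic lipid droplets, and its protein is stabilised by stored lipid. It stood at 152 and 143 CPM in Kupffer cells and 736 and 725 CPM in LAM-gated macrophages. Kupffer-like macrophages held 96.9 and 148.5 CPM on ND and 506 and 420 CPM on CDA-HFD, and remaining macrophages held 98.7 and 81.6 CPM on ND and 413 and 411 CPM on CDA-HFD. Ly6Chi monocytes held 118 and 89.7 CPM on ND and 252 and 258 CPM on CDA-HFD, and Ly6Clo monocytes 164 and 151 CPM on ND and 271 and 278 CPM on CDA-HFD. Each of the 4 classes read on both diets was higher in both CDA-HFD-fed mice than in both ND-fed mice. On CDA-HFD the order was LAM-gated, Kupffer-like, remaining, Ly6Clo and Ly6Chi, without overlap between neighbouring pairs. Plin2 was higher on CDA-HFD in neutrophils too, at 51.1 and 54.4 CPM on ND and 215 and 193.5 CPM on CDA-HFD.

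Apoe is the apolipoprotein that carries lipid away from macrophages. It was at 25910 and 30120 CPM in Kupffer cells on ND and 24630 and 27350 CPM in LAM-gated macrophages on CDA-HFD. Kupffer-like macrophages held 26490 and 37370 CPM on ND and 43990 and 42260 CPM on CDA-HFD, and remaining macrophages held 16160 and 21640 CPM on ND and 24800 and 27640 CPM on CDA-HFD. Kupffer-like macrophages of CDA-HFD-fed mice were highest, and the LAM-gated and remaining values overlapped. Ly6Chi monocytes held 2197 and 2561 CPM on ND and 4102 and 7571 CPM on CDA-HFD, and Ly6Clo monocytes 4066 and 6126 CPM on ND and 6296 and 7769 CPM on CDA-HFD. The monocyte values were well below those of macrophages and overlapped each other on CDA-HFD. The deposited matrix holds no Apoe count from 1 to 17, since low values of this gene were set to 0. If each 0 in Ly6Chi monocytes hid the most that this allows, their Apoe levels would be 2773 and 3108 CPM on ND and 4625 and 7924 CPM on CDA-HFD, with the mice in the same order. Intervals of Apoe levels and ratios do not cover such hidden counts in any class.

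Abca1 moves cholesterol and phospholipid to lipid-poor apolipoproteins. It was at 121 and 191 CPM in Kupffer cells and 73.3 and 71.1 CPM in LAM-gated macrophages. Kupffer-like macrophages held 116 and 132 CPM on ND and 153 and 144 CPM on CDA-HFD, and remaining macrophages held 35.4 and 72.0 CPM on ND and 69.4 and 78.2 CPM on CDA-HFD. LAM-gated and remaining macrophages overlapped on CDA-HFD, and both lay below the Kupffer-like class. Ly6Chi monocytes held 0 and 7.80 CPM on ND and 11.3 and 21.7 CPM on CDA-HFD, and Ly6Clo monocytes 16.1 and 9.69 CPM on ND and 28.5 and 33.3 CPM on CDA-HFD. Monocytes were the lowest of the compared classes. Abcg1 moves cholesterol to mature high-density lipoprotein. Its level was 221.5 and 282 CPM in Kupffer cells, 199 and 201 CPM on ND and 228 and 204 CPM on CDA-HFD in Kupffer-like macrophages, and 169.6 and 170.5 CPM in LAM-gated macrophages. Remaining macrophages held 115 and 168.5 CPM on ND and 144 and 172 CPM on CDA-HFD, Ly6Chi monocytes 81.5 and 92.6 CPM on ND and 60.6 and 108 CPM on CDA-HFD and Ly6Clo monocytes 146 and 192 CPM on ND and 141.5 and 190.3 CPM on CDA-HFD. The classes lay closer together for Abcg1 than for the other members: its highest sum was 4.65 times its lowest. On CDA-HFD, LAM-gated, remaining and Ly6Clo values overlapped.

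**Figure D1:**
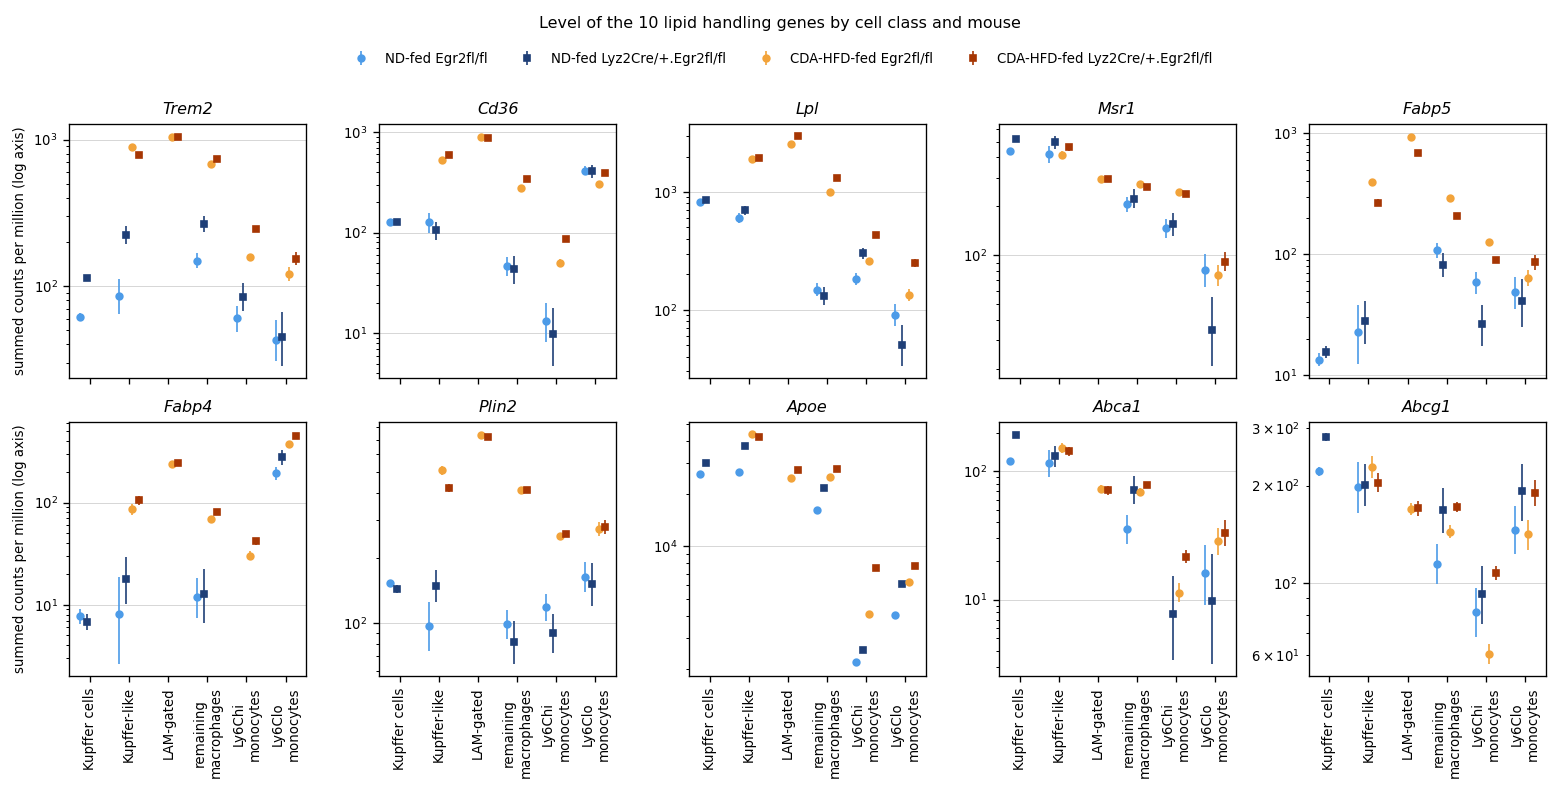
Level of each of the 10 genes (CPM, log axis) by cell class in each of the 4 mice, as points with exact 95% Poisson intervals that cover counting error only; sums without a count are not drawn. LAM-gated macrophages are high for Trem2, Cd36, Lpl, Fabp5 and Plin2, Kupffer-like macrophages for Apoe, and Ly6Clo monocytes for Fabp4.

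The first comparison asks which of these genes differ between CDA-HFD and ND within a class, separately in each genotype. It is given here for 4 classes of macrophages and monocytes. In Kupffer-like macrophages 7 members passed the 1.5-fold in Egr2fl/fl mice, against 43.7% of all genes tested, and 6 did in Lyz2Cre/+.Egr2fl/fl mice, against 38.2%. In remaining macrophages 8 passed in Egr2fl/fl mice, against 36.3% of all genes, and 6 in Lyz2Cre/+.Egr2fl/fl mice, against 44.3%. In Ly6Chi monocytes 8 passed in Egr2fl/fl mice, against 34.0%, and 8 in Lyz2Cre/+.Egr2fl/fl mice, against 39.0%. In Ly6Clo monocytes 5 passed in Egr2fl/fl mice, against 36.8%, and 7 in Lyz2Cre/+.Egr2fl/fl mice, against 40.2%. Every member past the fold in these comparisons was higher on CDA-HFD, while 15.7% to 22.5% of all genes were. The 4 Egr2fl/fl medians of the member ratios were 3.69, 3.44, 2.14 and 1.51 in that order of classes, and the median over all genes tested lay between 0.945 and 1.00. In Lyz2Cre/+.Egr2fl/fl mice the member medians were 2.81, 2.66, 2.88 and 1.97, and the all-gene medians 0.961 to 0.999. The share of members in Ly6Clo monocytes of Egr2fl/fl mice, 5 of 10, was the nearest of the 8 to that of all genes.

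Trem2, Fabp4 and Plin2 were higher on CDA-HFD in all 4 classes and both genotypes. For Trem2 the diet ratios were 10.3 (7.87 to 13.8) and 3.53 (3.055 to 4.09) in Kupffer-like macrophages and 4.535 (4.01 to 5.15) and 2.79 (2.465 to 3.18) in remaining macrophages. They were 2.64 (2.15 to 3.28) and 2.89 (2.34 to 3.62) in Ly6Chi monocytes and 2.815 (2.02 to 4.02) and 3.46 (2.27 to 5.52) in Ly6Clo monocytes. For Plin2 they were 5.22 (4.03 to 6.87) and 2.83 (2.37 to 3.40) in Kupffer-like and 4.18 (3.595 to 4.895) and 5.04 (4.03 to 6.40) in remaining macrophages. The Plin2 ratios were smaller in monocytes, 2.14 (1.84 to 2.49) and 2.87 (2.34 to 3.57) in Ly6Chi and 1.66 (1.39 to 1.99) and 1.84 (1.45 to 2.355) in Ly6Clo cells. For Fabp4 the ratios were 10.6 (4.49 to 32.96) and 5.87 (3.57 to 10.35) in Kupffer-like and 5.80 (3.77 to 9.415) and 6.42 (3.67 to 12.5) in remaining macrophages. These rest on few ND counts, their intervals are wide, and several alternatives moved them by more than 1.5 times without ending a call. In Ly6Chi monocytes, with no Fabp4 count on ND, Fabp4 was at least 16.01-fold and at least 14.4-fold higher against a floor of 3 counts in each mouse. That floor is a 1-sided bound, and the exact 2-sided interval reaches down to 12.96 and 11.65, and without the top 1% of cells to 2.65 and 5.25. The CDA-HFD level there was near that of neutrophils. In Ly6Clo monocytes its ratios were 1.95 (1.66 to 2.30) and 1.61 (1.35 to 1.93). The second came to a log2 ratio of 0.54, under the fold, among cells with at least 1500 detected genes.

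Cd36, Lpl and Fabp5 were higher in both genotypes in Kupffer-like and in remaining macrophages. The Cd36 ratios were 4.22 (3.36 to 5.37) and 5.65 (4.60 to 7.02) in Kupffer-like and 6.065 (4.87 to 7.65) and 7.825 (5.76 to 10.9) in remaining macrophages. Those of Lpl were 3.16 (2.84 to 3.52) and 2.79 (2.57 to 3.03) in Kupffer-like and 6.71 (5.935 to 7.615) and 10.1 (8.47 to 12.15) in remaining macrophages. Fabp5 had ratios of 17.4 (10.3 to 31.9) and 9.58 (6.46 to 14.9) in Kupffer-like macrophages, the first being the largest member ratio of these 4 classes among those with counts on both diets, and of 2.69 (2.33 to 3.13) and 2.53 (2.02 to 3.21) in remaining macrophages. In Ly6Chi monocytes Cd36 ratios were 3.80 (2.465 to 6.19) and 8.92 (4.84 to 18.65), but when cells were classed by clusters instead of gates the first came to a log2 ratio of 0.20, under the fold. Fabp5 ratios there were 2.145 (1.74 to 2.67) and 3.40 (2.32 to 5.175), the first coming to 1.27 (1.01 to 1.61), under the fold, without the top 1% of cells, while Lpl stayed just under the fold at 1.44 and 1.43. In Ly6Clo monocytes Cd36 did not pass the fold, at 0.734 (0.648 to 0.832) and 0.9715 (0.835 to 1.13), and the lower of these is the smallest member ratio of the 4 classes. Lpl and Fabp5 passed there in the sums of Lyz2Cre/+.Egr2fl/fl mice, and in Egr2fl/fl mice with some other ways of processing named below, Lpl with ratios of 1.475 (1.16 to 1.90) and 4.945 (3.34 to 7.63) and Fabp5 with 1.32 (0.941 to 1.88) and 2.10 (1.34 to 3.465). Under a stricter gate the second Fabp5 value came to a log2 ratio of 0.55, under the fold. The difference between genotypes in these diet ratios was not tested.

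Msr1 and the efflux genes differed less between diets in macrophages. Msr1 did not pass the fold in Kupffer-like (0.994 and 0.930) or remaining (1.33 and 1.18) macrophages. In Ly6Clo monocytes its ratios were 0.932 (0.709 to 1.24) and 2.62 (1.62 to 4.50), so that it passed in Lyz2Cre/+.Egr2fl/fl mice alone. In Ly6Chi monocytes they were 1.67 (1.46 to 1.92) and 1.535 (1.31 to 1.81), the first coming to a log2 ratio of 0.50, under the fold, with the stricter gate. Apoe ratios were 1.66 (1.63 to 1.69) and 1.13 (1.12 to 1.14) in Kupffer-like and 1.53 (1.515 to 1.55) and 1.28 (1.26 to 1.295) in remaining macrophages, past the fold in Egr2fl/fl mice. In remaining macrophages the Lyz2Cre/+.Egr2fl/fl value passed too with TMM (log2 0.63), while the Egr2fl/fl value came under the fold with the mean over cells (log2 0.27), the stricter gate (0.57) and clusters (0.28). In Ly6Chi monocytes Apoe ratios were 1.87 (1.80 to 1.93) and 2.96 (2.84 to 3.07). These intervals do not cover the low Apoe values set to 0. If zeros hid the most they could on ND alone, the first ratio would come under the fold. In Ly6Clo monocytes they were 1.55 (1.49 to 1.605) and 1.27 (1.22 to 1.32), the first coming to a log2 ratio of 0.57 with the mean over cells and 0.51 with clusters. Abca1 in Kupffer-like macrophages had ratios of 1.32 and 1.09, and in remaining macrophages 1.96 (1.52 to 2.58) and 1.085 (0.851 to 1.405). In Ly6Chi monocytes, with no Abca1 count in the ND-fed Egr2fl/fl mouse, Abca1 was at least 6.02-fold higher in that genotype against a floor of 3 counts, with a 2-sided exact interval that reaches down to 4.83, and 2.78 (1.39 to 6.495) times as high in the other. In Ly6Clo monocytes it had ratios of 1.76 (0.9995 to 3.32) and 3.43 (1.41 to 10.9), the first with an interval that includes 1, and with clusters that first value came to a log2 ratio of 0.23. Abcg1 passed the fold between diets in none of the 4 classes; its ratios ran from 0.743 in Ly6Chi monocytes of Egr2fl/fl mice to 1.26 in remaining macrophages of the same genotype.

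Other ways of processing also moved diet ratios while keeping their direction. Lpl in Ly6Chi monocytes passed the fold in Egr2fl/fl mice with TMM, the stricter gate and clusters. In Lyz2Cre/+.Egr2fl/fl mice it passed with TMM, the mean over cells, clusters, the filter of at least 90% own hashtag and without the top 1% of cells. In Ly6Clo monocytes of Egr2fl/fl mice, Lpl passed with all of these and the stricter gate, Fabp5 with the mean over cells and clusters, and Cd36, as lower, among cells with at least 1500 detected genes. Abca1 in Kupffer-like macrophages of Egr2fl/fl mice passed with TMM and the stricter gate, and Msr1 in remaining macrophages of that genotype with TMM and without the highest Scrublet scores. Some moved by more than 1.5 times. Lpl did so with clusters in Ly6Chi monocytes of both genotypes, and with clusters and the hashtag filter in Ly6Clo monocytes of Egr2fl/fl mice, where Trem2 was larger with these and with the stricter gate. Fabp5 in remaining macrophages of Egr2fl/fl mice was larger with clusters and with the hashtag filter, and Cd36 there was smaller with clusters. In Ly6Clo monocytes of Lyz2Cre/+.Egr2fl/fl mice, Msr1 and Abca1 were smaller with clusters, and in Ly6Chi monocytes of that genotype Abca1 was larger with clusters and Cd36 with the hashtag filter.

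The same ratios were read in neutrophils and dendritic cells. In neutrophils 3 members were higher on CDA-HFD in Egr2fl/fl mice, against 26.7% of all genes, and 6 in Lyz2Cre/+.Egr2fl/fl mice, against 26.3%. The first of these, 3 of 10, is near the share of all genes. Plin2 ratios there were 4.205 (2.805 to 6.605) and 3.555 (2.59 to 5.003), and Fabp4 ratios 21.3 (3.76 to 845.5) and 2.20 (1.21 to 4.38), the first from 1 ND count. In Lyz2Cre/+.Egr2fl/fl mice alone Apoe passed at 4.37 (3.88 to 4.94), Msr1 at 3.825 (1.885 to 9.05) and Lpl at 2.02 (1.40 to 2.99), with Abca1 at 2.10 (0.647 to 10.8). Trem2 passed in Egr2fl/fl mice alone, at 1.715 (0.903 to 3.66). In dendritic cells 5 members were higher and 1 lower in each genotype, against 14.98% and 15.03% of all genes in Egr2fl/fl and 15.7% and 15.25% in Lyz2Cre/+.Egr2fl/fl mice. Trem2, Fabp5, Fabp4 and Apoe were higher there in both genotypes. The Apoe ratios of both classes are not bounded by their intervals, because low Apoe values had been set to 0. At the most that each 0 could hide, neutrophils would hold 3980 and 4258 CPM on ND and 3938 and 4752 CPM on CDA-HFD, and dendritic cells 930.5 and 1032 and then 1282 and 1273 CPM. How much of the diet ratios of the compared classes comes from RNA shared between cells of a mouse was not tested. Depth differed too: Kupffer-like macrophages had median counts per cell of 9183 and 10456 on ND and 29970 and 25146.5 on CDA-HFD. Clusters named Kupffer-like held 17 and 15 cells on ND, against 49 and 66 by the gate, and 52 and 89 on CDA-HFD, against 106 and 154. Clusters named Kupffer cells held 765 and 837 on ND, against 721 and 771 by the gate. Whether the Kupffer-like macrophages of both diets are the same kind of cell was not tested. Whether Timd4 was missed in some of the shallower ND cells, and the part of depth in these diet ratios, was not tested.

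**Figure D2:**
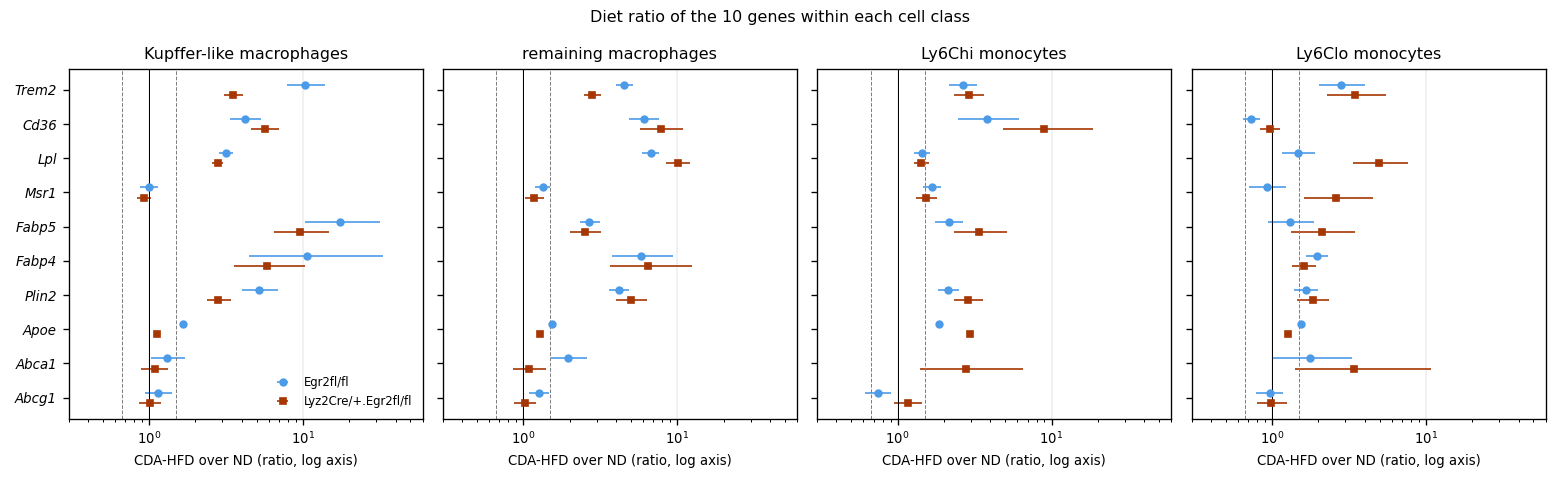
CDA-HFD over ND ratio of each gene (log axis) in 4 classes and both genotypes, as points with exact binomial-split 95% intervals; dashed lines mark 1.5 and 1/1.5, and ratios against a sum of 0 counts are not drawn. The ratios run from 0.734 for Cd36 in Ly6Clo monocytes to 17.4 for Fabp5 in Kupffer-like macrophages, both in Egr2fl/fl mice.

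Because few cells passed the Kupffer gate on CDA-HFD, their ND values were set beside the Kupffer-like macrophages of CDA-HFD-fed mice. The 2 classes differ in Timd4 as well as in diet, and these cannot be told apart. Fabp5 was 29.4 and 17.2 times as high in the CDA-HFD Kupffer-like macrophages, and Fabp4 11.1 and 15.5 times. Trem2 was 14.4 and 6.88 times as high, Cd36 4.18 and 4.69 times, Plin2 3.325 and 2.93 times and Lpl 2.31 and 2.29 times. Apoe ratios were 1.70 and 1.40. Msr1, with 0.943 and 0.890, Abca1, with 1.27 and 0.752, and Abcg1, with 1.03 and 0.724, did not pass the fold in either genotype.

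The next comparison asks how the macrophage classes differ within a mouse, a difference being counted when it passed the fold the same way in both mice. LAM-gated macrophages were higher than remaining macrophages for 5 members, against 7.26% of all genes past the fold in either direction. Cd36 ratios were 3.21 (3.095 to 3.33) and 2.58 (2.49 to 2.67), Lpl 2.58 (2.53 to 2.635) and 2.24 (2.20 to 2.28) and Plin2 1.78 (1.73 to 1.84) and 1.76 (1.70 to 1.825). By the main gate the binding genes had the highest ratios, Fabp5 with 3.23 (3.12 to 3.35) and 3.33 (3.19 to 3.47) and Fabp4 with 3.43 (3.19 to 3.69) and 2.97 (2.77 to 3.18). In the Egr2fl/fl mouse Cd36 was level with Fabp5 within counting error. Trem2 passed in the Egr2fl/fl mouse only, at 1.53 (1.49 to 1.57) and 1.40 (1.36 to 1.44), and that call ended with the stricter gate (log2 0.56) and with clusters (0.08). Msr1, Apoe, Abca1 and Abcg1 did not pass the fold, with ratios from 0.909 for Abca1 to 1.18 for Abcg1. With clusters, Apoe and Abca1 were instead lower in LAM-gated macrophages in both mice, and Fabp4 in the first and Cd36 in the second lay more than 1.5 times higher. Median counts per cell were 25371 and 23314.5 in LAM-gated and 17684.5 and 16717 in remaining macrophages. The part of depth in the difference was not tested.

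Kupffer-like and LAM-gated macrophages of the same CDA-HFD-fed mice differed for 4 members, against 11.5% of all genes. Apoe was 1.79 (1.775 to 1.80) and 1.545 (1.535 to 1.555) times as high in the Kupffer-like class and Abca1 2.09 (1.87 to 2.33) and 2.02 (1.80 to 2.27) times. Fabp5 ratios were 0.4195 (0.395 to 0.445) and 0.390 (0.365 to 0.415) and Fabp4 ratios 0.3595 (0.316 to 0.4075) and 0.432 (0.389 to 0.479), both lower in the Kupffer-like class. Cd36, Lpl and Plin2 were also below the LAM-gated level in both mice, and passed the fold in 1 mouse each: Cd36 ratios were 0.591 and 0.676, Lpl 0.738 and 0.656 and Plin2 0.687 and 0.579. With clusters, 8 members differed instead of 4, and the ratios of Cd36, Fabp5, Fabp4 and Plin2 lay more than 1.5 times further from 1 in both mice, as did that of Lpl in the Egr2fl/fl mouse. The stricter gate did the same to Fabp4 in the Egr2fl/fl mouse. Cd36 in the Lyz2Cre/+.Egr2fl/fl mouse passed as lower with TMM, the stricter gate, clusters, without the highest Scrublet scores and without the top 1% of cells, and Plin2 in the other with TMM, the stricter gate and clusters. The Apoe call in the Lyz2Cre/+.Egr2fl/fl mouse came to a log2 ratio of 0.57 with edgeR's TMM scaling. Lpl, in that mouse, came to -0.52 among cells with at least 90% own hashtag, and Msr1, at 1.41 and 1.56, to 0.58 with TMM and 0.47 with the stricter gate in its second value, while its first passed with the mean over cells (0.64). Trem2 was lower in the Kupffer-like class, at 0.855 and 0.754, and passed the fold with clusters in both mice (log2 -0.59 and -0.78) and with the stricter gate in the second (-0.61). Abcg1 ratios were 1.35 and 1.20.

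Remaining macrophages stood above Ly6Chi monocytes of the same CDA-HFD-fed mice for 9 members, against 16.9% of all genes. Abca1 ratios were 6.13 and 3.61, Apoe 6.045 and 3.65, Cd36 5.60 and 3.91 and Trem2 4.26 and 3.03. Lpl ratios were 3.81 and 3.09, and Fabp5 2.32 and 2.305. Fabp4 passed with 2.31 and 1.94, Abcg1 with 2.38 and 1.59 and Plin2 with 1.64 and 1.60. The second Abcg1 ratio came to a log2 of 0.57, under the fold, among cells with at least 90% own hashtag. With clusters, Lpl and Fabp5 in both mice and Fabp4 in the second lay more than 1.5 times higher, and with the stricter gate so did Fabp4 in the first. Without the top 1% of cells Fabp4 lay more than 1.5 times higher in both, at log2 ratios of 2.65 and 1.65. Msr1, the 1 exception, had ratios of 1.12 and 1.11, the second passing with clusters (log2 0.60). Ly6Clo against Ly6Chi monocytes gave 6 members past the fold, against 13.6% of all genes. Fabp4 was 12.5 (11.0 to 14.1) and 10.6 (9.63 to 11.8) times as high in Ly6Clo monocytes and Cd36 6.04 (5.42 to 6.73) and 4.525 (4.155 to 4.93) times. Abca1 ratios were 2.51 and 1.53 and Abcg1 ratios 2.335 and 1.76. In the Lyz2Cre/+.Egr2fl/fl mouse the Abca1 call ended with TMM (log2 0.52), the mean over cells (0.34) and the stricter gate (0.50), and with clusters Abca1 turned to -0.12. The Abcg1 call there came to 0.54 with clusters. Lpl was lower in Ly6Clo monocytes, at 0.510 and 0.580, and so was Msr1, at 0.307 and 0.384. The stricter gate moved Lpl in both mice, Msr1 and Fabp4 in the first and Cd36 in the second by more than 1.5 times, all further from 1, and in the first mouse clusters and the mean over cells did so for Fabp4. Without the top 1% of cells Fabp4 did so in both mice, with log2 ratios of 5.74 and 4.45. In the sums of 1 mouse only, Trem2 passed as lower in Ly6Clo monocytes, at 0.761 and 0.628, Fabp5 also as lower, at 0.510 and 0.956, and Apoe as higher, at 1.535 and 1.03. Each of these 3 calls ended in at least 1 other way of processing. In the other mouse Trem2 passed as lower with the mean over cells (log2 -0.64) and the stricter gate (-0.60), and Fabp5 with the stricter gate (-0.60). Median counts per cell were 7980 and 8033 in Ly6Clo and 12801 and 13076 in Ly6Chi monocytes, and the part of depth was not tested.

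On ND, Kupffer cells and remaining macrophages differed for 9 members, against 25.7% of all genes. Lpl was 5.54 (4.90 to 6.28) and 6.46 (5.415 to 7.775) times as high in Kupffer cells. Abca1 ratios were 3.41 (2.65 to 4.46) and 2.65 (2.085 to 3.42), Msr1 2.14 and 2.32 and Abcg1 1.93 and 1.67. Cd36 ratios were 2.76 and 2.91, the first coming to a log2 ratio of 0.47 with clusters, and Plin2 ratios 1.54 and 1.76, the first coming to 0.57 with the stricter gate. Trem2 was lower in Kupffer cells, at 0.410 (0.358 to 0.471) and 0.428 (0.375 to 0.490), and Fabp5 at 0.124 (0.102 to 0.151) and 0.191 (0.148 to 0.249). Fabp4 ratios were 0.6455 (0.4065 to 1.075) and 0.530 (0.293 to 1.055) on few counts, and both intervals include 1. In the Egr2fl/fl mouse the call ended with TMM (log2 -0.50) and among cells with at least 1500 detected genes (-0.435), and turned to 0.63 among cells with at least 90% own hashtag. In the Lyz2Cre/+.Egr2fl/fl mouse it ended with the mean over cells (-0.48), clusters (-0.38) and without the top 1% of cells (-0.48), and turned to 0.064 without the highest Scrublet doublet scores. Apoe passed in the Egr2fl/fl mouse only, with ratios of 1.60 and 1.39. That call ended with the mean over cells (log2 0.37) and the stricter gate (0.51), and turned to -0.19 with clusters, while with TMM the second value passed (0.70). With clusters, the Egr2fl/fl ratio of Trem2 lay further from 1 and those of Fabp5 and Abca1 nearer to it, by more than 1.5 times. Fabp5 was also nearer to 1 with the hashtag filter in that mouse and with the mean over cells in the other.

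The genotype comparison asks whether the members differ between Lyz2Cre/+.Egr2fl/fl and Egr2fl/fl mice on the same diet. In Kupffer cells on ND, 2 members passed the fold, against 11.6% of all genes. With only 10 members, this share is not far from that of all genes. Trem2 stood at 1.86 (1.725 to 2.00) and Abca1 at 1.58 (1.5 to 1.67) times the Egr2fl/fl level, and both kept their call in every alternative run. On CDA-HFD no member passed in Kupffer-like macrophages, against 19.7% of all genes. None passed in LAM-gated macrophages, against 14.2%, and none in remaining macrophages, against 12.0%. Of the LAM gating markers, the paper reports Itgax, Spp1 and Cd63 as repressed in macrophages without Egr2. The gate thus matched cells on them, and the part of this was not tested. LAM-gated macrophages were 8.71% and 4.94% of barcodes. Over all CDA-HFD cells Fabp5 stood at 398 and 253 CPM and Plin2 at 354 and 334 CPM. The other members were higher in the Lyz2Cre/+.Egr2fl/fl mouse. In LAM-gated macrophages the Trem2 ratio was 1.005 (0.978 to 1.03), that of Cd36 0.975 (0.946 to 1.00) and that of Plin2 0.985 (0.953 to 1.02), so these 3 were level between the 2 mice within counting error or nearly so. The lowest of 50 CDA-HFD genotype ratios was that of Fabp5 in Kupffer-like macrophages, 0.680 (0.6265 to 0.738). Fabp5 was also below the Egr2fl/fl level, without passing, in LAM-gated macrophages, 0.732 (0.709 to 0.756), in remaining macrophages, 0.710 (0.679 to 0.7425), and in Ly6Chi monocytes, 0.715 (0.664 to 0.770). It passed the fold as lower in Kupffer-like macrophages with the stricter gate, with clusters, among cells with at least 90% own hashtag, and without the top 1% of cells, in LAM-gated macrophages with the stricter gate, and in Ly6Chi monocytes with the hashtag filter (log2 -0.69). Without the top 1% of cells the Ly6Chi ratio of Fabp5 came nearer to 1, at 0.833 (0.755 to 0.920). In Ly6Clo monocytes Fabp5 went the other way, at 1.34, without passing. With clusters, Fabp4 passed as higher in Kupffer-like and in remaining macrophages. It did so in remaining macrophages without the top 1% of cells too. In LAM-gated macrophages the stricter gate moved Fabp4 down by more than 1.5 times, without a call.

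In Ly6Chi monocytes on CDA-HFD, 6 members passed the fold, against 12.7% of all genes, and all 6 were higher in the Lyz2Cre/+.Egr2fl/fl mouse. The ratio was 1.915 (1.565 to 2.35) for Abca1, 1.85 (1.83 to 1.865) for Apoe and 1.78 (1.63 to 1.945) for Abcg1. It was 1.74 (1.58 to 1.915) for Cd36, 1.64 (1.575 to 1.715) for Lpl and 1.54 (1.46 to 1.63) for Trem2. With clusters, the Trem2 and Apoe values came to log2 ratios of 0.36 and 0.55, under the fold. That of Lpl came to 0.58 both among cells with at least 90% own hashtag and without the highest Scrublet scores. The median ratio of the 10 members was 1.59 in Ly6Chi monocytes, 0.9497 in Kupffer-like, 1.00 in LAM-gated and 1.12 in remaining macrophages. The 8 macrophage markers summed to 1427 and 1619 CPM in the Ly6Chi monocytes of these mice, and their part in the result was not tested. Neutrophils of the same mice differed for 2 members, Apoe at 3.235 (3.07 to 3.41) and Lpl at 1.86 (1.53 to 2.26), against 12.6% and 9.997% of all genes as higher and lower. This share of the 10 members is near that of all genes. The zeros set for Apoe could hide more than the neutrophil counts found, so that its ratio there is not bounded by the interval. The part of RNA from other cells in the Ly6Chi result was not tested. Neutrophil ratios were 1.31 (1.03 to 1.66) for Trem2, 0.806 (0.626 to 1.04) for Cd36, 1.02 (0.580 to 1.78) for Abca1 and 0.951 (0.819 to 1.105) for Abcg1. In Ly6Clo monocytes on CDA-HFD, 1 member passed, against 20.6% of all genes. This share is under that of all genes. The member was Lpl, at 1.87 (1.63 to 2.145). With the stricter gate Cd36 and Msr1 passed as well, and with clusters Msr1 did, while Abca1 moved down by more than 1.5 times. In Ly6Chi monocytes Fabp4 passed as higher with the mean over cells, the stricter gate, clusters and without the top 1% of cells.

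On ND the other classes held few cells, and their genotype ratios are given as values. In remaining macrophages Trem2 had a ratio of 1.78 (1.49 to 2.12) and Abca1 of 2.04 (1.42 to 2.92), the same pair of genes that passed in Kupffer cells; this likeness was seen after the values were known. These are 2 of 10 members, against 17.35% and 15.45% of all genes as higher and lower, so the share is under that of all genes. In Kupffer-like macrophages Trem2 had a ratio of 2.595 (1.91 to 3.58) and Plin2 of 1.53 (1.12 to 2.11), 2 of the 9 members with at least 30 counts, against 18.2% and 15.5% of all genes, while Abca1 was at 1.13 (0.838 to 1.54). In Ly6Chi monocytes Lpl had a ratio of 1.66 (1.41 to 1.95) and Fabp5 of 0.451 (0.2825 to 0.699), 2 of 8 members with enough counts, against 13.9% and 14.1%. Without the top 1% of cells that Lpl ratio came to 1.28 (1.06 to 1.55), under the fold. In Ly6Clo monocytes Lpl stood at 0.558 (0.345 to 0.875) and Msr1 at 0.432 (0.243 to 0.7305), both lower, and Apoe, as higher, at 1.51 (1.44 to 1.58), 3 of 9 members, against 13.9% and 17.7%. This share is near that of all genes, as is that in Ly6Chi monocytes, and that in Kupffer-like macrophages is under it. The Lpl ratios of Ly6Clo monocytes thus lay on opposite sides of 1 on the 2 diets, but without the top 1% of cells the ND ratio came to 0.863 (0.471 to 1.53), an interval that includes 1, and the CDA-HFD ratio to 2.08 (1.76 to 2.465). The difference between the diets was not tested.

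**Figure D3:**
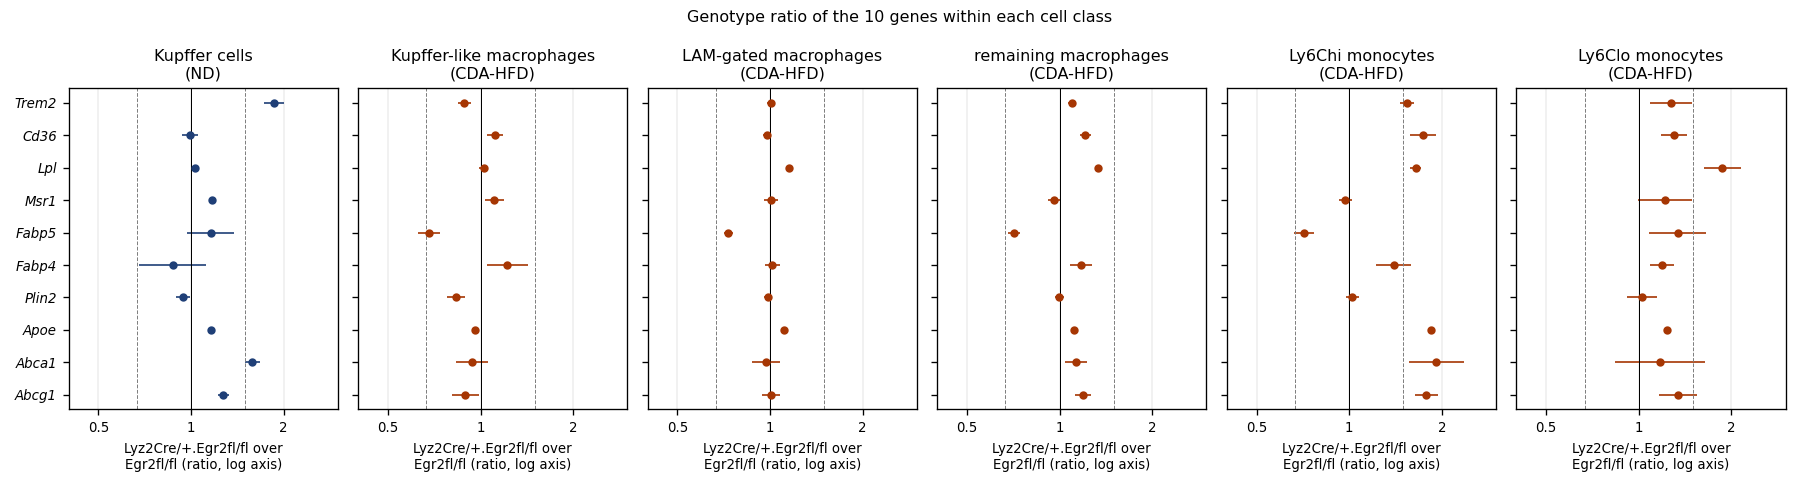
Lyz2Cre/+.Egr2fl/fl over Egr2fl/fl ratio of each gene (log axis), in Kupffer cells on ND and in 5 classes on CDA-HFD, as points with exact binomial-split 95% intervals; dashed lines mark 1.5 and 1/1.5. Past 1.5 lie 6 genes in Ly6Chi monocytes, Trem2 and Abca1 in Kupffer cells, and Lpl in Ly6Clo monocytes.

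The share of cells with a count shows how widely each member was found. Each cell was thinned to 3000 counts first, so that depth was equal. Neutrophils are given beside the compared classes. Before thinning their median depth was 3813, 3950, 4122.5 and 4081 counts, against 25371 and 23314.5 in LAM-gated macrophages, 12801 and 13076 in CDA-HFD Ly6Chi monocytes and 26028 and 23642 in Kupffer cells. Intervals beside shares are exact Clopper-Pearson 95% intervals for counting error. Trem2 was found in 84.6% (81.2 to 87.6) and 81.4% (76.55 to 85.6) of LAM-gated macrophages and in 76.4% and 72.7% of Kupffer-like ones on CDA-HFD. It was found in 27.7% and 39.7% of remaining macrophages on ND and 66.35% and 70.4% on CDA-HFD, and in 12.5% and 21.8% of Kupffer cells. In Ly6Chi monocytes the share was 8.475% (4.14 to 15.03) and 17.95% (10.2 to 28.3) on ND and 26.8% (24.0 to 29.8) and 35.75% (32.9 to 38.65) on CDA-HFD. Neutrophils gave 5.71% and 6.145% on ND and 4.13% (2.825 to 5.82) and 5.28% (3.68 to 7.30) on CDA-HFD. The shares in Ly6Chi monocytes were above these, with wide intervals on ND. In Ly6Clo monocytes on ND it was 3.31% and 5.88%, no more than in neutrophils, and on CDA-HFD 20.5% and 20.2%.

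Cd36 was found in 61.0% (56.6 to 65.3) and 62.1% (56.4 to 67.55) of LAM-gated and 26.7% and 33.5% of remaining macrophages on CDA-HFD, and in 52.1% and 54.4% of Ly6Clo monocytes on ND. In ND Ly6Chi monocytes it was in 4.24% and 2.56% of cells, below the 7.62% and 6.145% of neutrophils. On CDA-HFD the Ly6Chi share was 7.88% and 11.3% and the neutrophil share 4.13% and 4.81%. Lpl was found in 76.6% (73.3 to 79.6) and 78.2% (75.1 to 81.1) of Kupffer cells, 82.65% and 86.3% of LAM-gated macrophages, and 18.75% and 14.7% of ND against 51.1% and 58.6% of CDA-HFD remaining macrophages. Neutrophils gave 3.81% and 8.94% on ND and 9.87% and 9.47% on CDA-HFD. Msr1 was found in 66.7% (63.1 to 70.15) and 69.8% (66.4 to 73.0) of Kupffer cells and at most 4.97% of neutrophils. Fabp5 was in 54.6% (50.2 to 58.95) and 51.3% (45.55 to 57.0) of LAM-gated macrophages, while its neutrophil share was already 21.5% (18.6 to 24.6) and 21.9% (18.8 to 25.3) in the same mice. The Fabp5 shares of remaining macrophages, 25.6% (22.5 to 28.9) and 21.7% (19.2 to 24.35), and of Ly6Chi monocytes, 13.3% and 11.9%, were close to or below that. It was 25.2% and 19.0% in dendritic cells of these mice, 5.26% and 4.35% in lymphocytes and 3.61% and 3.37% in ND Kupffer cells, so the neutrophil share was not common to all classes, and which part of it is their own was not tested.

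Fabp4 was found in 22.8% (19.2 to 26.7) and 23.2% (18.6 to 28.3) of LAM-gated macrophages and 43.6% and 48.1% of Ly6Clo monocytes on CDA-HFD. In Ly6Chi monocytes of those mice it was in 2.77% (1.82 to 4.03) and 5.16% (3.93 to 6.63), close to the neutrophil shares of 4.67% (3.27 to 6.43) and 4.50% (3.04 to 6.40). In dendritic cells it was 1.67% (0.8665 to 2.90) and 1.70% (0.8825 to 2.95), and in lymphocytes 2.63% and 0%. Plin2 was found in 67.45% (63.2 to 71.5) and 73.9% (68.55 to 78.7) of LAM-gated macrophages and in 18.75% and 20.6% of ND against 51.8% and 48.6% of CDA-HFD remaining macrophages. Its neutrophil share differed between diets too, 10.5% and 11.2% on ND and 26.3% and 24.2% on CDA-HFD. Apoe was found in 99.9% and 100% of Kupffer cells and in 59.5% and 72.1% of CDA-HFD Ly6Chi monocytes, against 5.07% and 8.54% of neutrophils. Thinning does not make depth equal for this gene, since its values under 18 had been set to 0 before it, and that hides more in shallow cells such as neutrophils. Abca1 was found in 26.35% (23.2 to 29.7) and 39.0% (35.6 to 42.6) of Kupffer cells and 17.9% and 17.3% of LAM-gated macrophages, with 1.20% and 2.17% of CDA-HFD neutrophils. Abcg1 was found in 44.9% (41.3 to 48.65) and 50.2% (46.6 to 53.8) of Kupffer cells and 32.75% and 35.95% of LAM-gated macrophages. Its neutrophil share was 18.9% and 18.0% on CDA-HFD, no lower than the first of the Ly6Chi shares there, 13.5% and 23.35%.

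Members could also be followed together within single cells, again after thinning, by Spearman's rho over the cells of 1 class in 1 mouse. Such cells share a library and a depth, and rho is given as a description. Cd36 and Lpl went together most clearly, with 0.54 and 0.46 over 513 and 306 LAM-gated macrophages and 0.49 and 0.46 over 734 and 1019 remaining macrophages. Over 106 and 154 CDA-HFD Kupffer-like macrophages it was 0.47 and 0.41, and over 721 and 771 Kupffer cells on ND only 0.08 and 0.08. Trem2 and Apoe gave 0.32 and 0.40 in LAM-gated and 0.42 and 0.37 in remaining macrophages. In Kupffer cells they gave 0.13 and 0.12. Fabp5 and Fabp4 gave 0.36 and 0.34 in LAM-gated macrophages. These pairs were picked after all values were seen. The median over all 45 pairs of members was 0.0855 and 0.0687 in LAM-gated macrophages, so most pairs were only weakly related in single cells.

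Likeness of pattern was measured as Pearson's r over 23 class sums (log CPM, classes with at least 100 cells in a mouse), across 7145 genes, and the 3 genes most like each member are named. The sums of 1 mouse share that mouse, and no p is given. For Trem2 they were Gdf3 (0.957), Lpl (0.929), Gas2l3 (0.926). For Cd36 they were Itgav (0.886), Asph (0.882), Pparg (0.881), for Lpl BC005537 (0.952), Nceh1 (0.944), Pld3 (0.9404), and for Msr1 Ctsa (0.949), Apoe (0.947), BC005537 (0.944). The lists name other members in Lpl for Trem2 and Apoe for Msr1. For Fabp5 they were Cd63-ps (0.793), Il7r (0.788), Gpr137b-ps (0.764), the lowest values of any member. For Fabp4 they were Pparg (0.925), Atp7a (0.854), Gm44805 (0.831), and for Plin2 Asph (0.930), Gdf15 (0.905), Mapk6 (0.899). For Apoe they were Rcbtb2 (0.982), Tlr8 (0.9645), Apobec1 (0.9505), for Abca1 Nr1h3 (0.960), Lgmn (0.957), Serpinb6a (0.9525), and for Abcg1 Arl6ip1 (0.888), Serpinb6a (0.881), Creg1 (0.863). Pparg, a lipid-sensing nuclear receptor, was thus near both Cd36 and Fabp4, and Nr1h3, which encodes the oxysterol receptor LXRα, was nearest to Abca1.

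A wider list of 75 other lipid genes, covering the same steps and beta-oxidation, lysosomal hydrolysis and regulators, had 73 in the matrix. Between diets, 8 of 61 tested passed the fold as higher and 3 as lower in both genotypes in Kupffer-like macrophages, against 7.17% and 7.06% of all genes. In remaining macrophages 10 of 68 were higher and 4 lower, against 5.865% and 8.68%. In Ly6Chi monocytes 10 of 66 and 2 did so, against 6.91% and 4.92%, and in Ly6Clo monocytes 11 of 58 and 3, against 6.73% and 5.99%. The named ones are from the 3 furthest in each direction among genes with at least 100 counts over both mice, whether or not they passed the fold. In Kupffer-like macrophages Hilpda, a droplet protein that restrains lipolysis, went from 16.15 to 234 CPM in Egr2fl/fl and from 21.2 to 148 CPM in Lyz2Cre/+.Egr2fl/fl mice. The fatty acid transporter Slc27a1 had diet ratios of 2.80 and 16.45, the second from 2 ND counts, and Apoc2 of 6.39 and 2.87. Apoc1 had ratios of 0.101 and 0.110, Marco of 0.0533 and 0.859 and Plcg2 of 0.531 and 0.603, the second Marco value not passing the fold. Marco is also 1 of the 9 Kupffer gating markers.

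In remaining macrophages Fabp7 had diet ratios of 18.3 and 2.62, the first from 8 ND counts, Angptl4 6.75 and 4.70, from 4 and 2 ND counts, and Apoc2 4.68 and 3.91. Ratios there were 0.510 and 0.343 for Cpt2 and 0.355 and 0.668 for Acsl1. In Ly6Chi monocytes Pparg had 5.06 and 19.05, the second from 1 ND count, Stab1 4.14 and 4.14 and Olr1 2.88 and 5.91. Among those furthest down were Lipe (0.532 and 0.822) and Scd2 (0.782 and 0.681), each past the fold in at most 1 genotype. In Ly6Clo monocytes Axl had 3.27 and 35.0, the second from 1 ND count, Mylip 2.62 and 2.80 and Cxcl16 2.34 and 2.81. Abca7 was at 0.456 and 0.422, Plcg2 at 0.687 and 0.537 and Hadhb at 0.684 and 0.603. Between genotypes, none passed the fold the same way on both diets among the 52 tested in Kupffer-like and 56 in remaining macrophages, 49 in Ly6Chi and 43 in Ly6Clo monocytes. Of all genes 0.957% and 0.9215% passed as higher and lower in the first, 0.491% and 0.518% in the second, 0.342% and 0.328% in the third and 1.31% and 0.993% in the last, so a count of 0 does not set the list apart. Of the genes named there by the same rule in Ly6Chi monocytes, Apoc2 had ratios of 1.05 and 1.79 on ND and CDA-HFD. Those further up were Scarb1 (1.16 and 1.18) and Lrp1 (1.24 and 1.10), and further down Hcst (0.532 and 0.933) and Dbi (0.817 and 0.966).

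Between classes on CDA-HFD, 8 of 69 wider-list genes were higher and 2 lower in LAM-gated than in remaining macrophages in both mice, beside 5 and 0 of the 10 members and 3.075% and 4.19% of all genes. Kupffer-like against LAM-gated macrophages gave 10 higher and 3 lower of 68, against 7.07% and 4.405% of all genes. Remaining macrophages against Ly6Chi monocytes gave 15 higher and 4 lower of 67, against 9.81% and 7.13%, and Ly6Clo against Ly6Chi monocytes 10 higher and 5 lower of 66, against 6.52% and 7.05%. On ND, Kupffer cells against remaining macrophages gave 20 higher and 5 lower of 66, against 14.7% and 11.05%. In the genotype comparison of CDA-HFD Ly6Chi monocytes, 8 of 67 were higher and 2 lower in the Lyz2Cre/+.Egr2fl/fl mouse, against 7.565% and 5.18% of all genes. In LAM-gated macrophages 2 of 70 were higher and 3 lower, against 7.215% and 7.015%.

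The members lie on 6 chromosomes of GRCm38, the build that the submitters' processing notes name, with positions from the GENCODE annotation. Trem2 (ENSMUSG00000023992.14) is at chr17:48346401-48354147 and Abcg1 (ENSMUSG00000024030.7) at chr17:31057675-31117988. Cd36 (ENSMUSG00000002944.15) is at chr5:17781690-17888801. Lpl (ENSMUSG00000015568.16) is at chr8:68880491-68907448 and Msr1 (ENSMUSG00000025044.16) at chr8:39581685-39642673. Fabp5 (ENSMUSG00000027533.10), at chr3:10012548-10016607, and Fabp4 (ENSMUSG00000062515.3), at chr3:10204088-10208576, are near neighbours on 1 chromosome. Plin2 (ENSMUSG00000028494.12) is at chr4:86648386-86670060, Abca1 (ENSMUSG00000015243.4) at chr4:53030787-53159895, and Apoe (ENSMUSG00000002985.16) at chr7:19696109-19699188.

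Since Abca1 passed the fold between genotypes in Kupffer cells and Ly6Chi monocytes and lay nearest to Nr1h3 in pattern, its promoter is shown. RefSeq promoters (GRCm38.p6, 250 bases before to 50 after the start) matched 5 of the 10 members, with 7 promoters in all. Members without an entry were Lpl, Msr1, Fabp5, Fabp4 and Abcg1. Both strands were searched for 3 motifs: GGTNA, any 5 bases and GGTNA again, a direct repeat (DR4) of the kind bound by LXR with RXR; AGGNCA, any 1 base and AGGNCA again, a direct repeat (DR1) of the kind bound by PPAR with RXR; and GCGNGGGCG, of the kind bound by Egr proteins. Of 32851 RefSeq mouse promoters, 236 held the first (0.718%), 125 the second (0.381%) and 1824 the third (5.55%). The Abca1 promoter, chr4:53159846-53160145 on the minus strand, held 1 DR4 match, given in capitals, whose first base lies at -67 from the start and which reads as the motif on the opposite strand.
Abca1: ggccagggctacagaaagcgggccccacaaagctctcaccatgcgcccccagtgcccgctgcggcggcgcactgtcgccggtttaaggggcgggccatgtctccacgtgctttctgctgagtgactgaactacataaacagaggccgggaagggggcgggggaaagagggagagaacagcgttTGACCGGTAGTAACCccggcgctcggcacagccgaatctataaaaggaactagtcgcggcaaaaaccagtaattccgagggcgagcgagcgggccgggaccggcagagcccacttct
None of the 3 motifs matched in the 6 other promoters of Plin2, Cd36, Apoe and Trem2. A match describes the letters in this window and was not tested as a binding site.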

How the data were processed

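The whole-number counts deposited by the authors were used, with hashtag calls as deposited. The submitters' processing notes name Seurat 4.1.1, R 4.2.1 and GRCm38; the sources used here do not give what 1 count stands for, a read or a molecule. The 1392 barcodes that the authors called doublets were left out, and so were 7 hashtag columns that belong to none of the 4 mice. In 28 genes, 13 of them gating markers, low values had been set to 0; among the members this holds for Apoe alone, whose lowest value above 0 is 18. RNA freed from other cells was not subtracted. Shares of cells were read beside neutrophils instead.

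Counts were summed per class and mouse and divided by the total counts of that sum. Kupffer cells needed at least 5 of 9 markers, Kupffer-like macrophages 3 of 7, LAM-gated macrophages 5 of 10, Ly6Chi monocytes 4 of 8 and Ly6Clo monocytes 5 of 8; dendritic cells and lymphocytes needed 2 and neutrophils 4. The background was taken over genes with at least 30 counts in both sums together. All 10 members are named. Of the wider list, the 3 genes furthest in each direction with at least 100 counts are named between diets, and between genotypes in Ly6Chi monocytes alone, and 1 gene is not reported here. For likeness the genes with the 3 highest r are named, with 10 CPM added before the log. Pairs within cells were computed where a class held at least 100 cells and each gene was found in at least 20. The members and lists were chosen with earlier results of these data known.

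Alternatives were TMM factors, the mean over cells, a gate with 1 more marker, at most 10% mitochondrial counts, at least 90% own hashtag, leaving out the 5% highest Scrublet scores (769 cells), at least 1500 detected genes, leaving out cells with over 1% hepatocyte marker counts, and 48 Leiden clusters (resolution 3, 2000 variable genes, 30 components, 15 neighbours). Leaving out each gene's top 1% of cells in a sum, at least 1 cell, was added after the data were seen. Software was Python 3.11.15, numpy 2.4.6, scipy 1.17.1, pandas 2.3.3, scanpy 1.11.5, python-igraph 0.11.9, scikit-learn 1.9.0, matplotlib 3.10.9 and edgeR 4.0.16. The ratios were tested on simulated counts with known changes. The gate was run on a few made-up cells, which checks its rules as written and not how well it classes real cells.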

Additional observations from a re-analysis of the deposited data

Results flagged for a closer look

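Lpl in Ly6Clo monocytes drew attention because the genotypes stood in opposite order on the 2 diets. The Lyz2Cre/+.Egr2fl/fl over Egr2fl/fl ratio was 0.558 on ND and 1.87 on CDA-HFD, each past the 1.5-fold in its own direction. The ND value leans on few cells: 1 of 121 cells held 53.6% of the 84 Lpl counts of the Egr2fl/fl mouse, and 18.2% and 20.6% of cells had an Lpl count before thinning. Without the 1% of cells with the most Lpl counts, a step chosen after the values were seen, the ratios came to 0.863 (0.471 to 1.53) on ND and 2.08 (1.76 to 2.465) on CDA-HFD, so the ND value no longer passed the fold. Each of the 4 values comes from 1 mouse, and the difference between the diets was not tested.

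Of the hashtag columns that belong to none of the 4 mice, all but A963 held counts. The 7 columns together had 843 counts, 0.00557% of all hashtag counts, and 775 of these were in column A955. These columns were used in no comparison.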

How the results depend on the processing

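Each of 237 member ratios was computed again under the other ways of processing, where enough cells were left. Clusters and the filter of at least 90% own hashtag gave 217 each. Of 136 past the 1.5-fold, 110 kept their call in every alternative run and 26 lost it in at least 1; 30 that had not passed did so in at least 1. Of 186 recomputed member counts, 176 stayed within 1.5 times. The number between diets ranged from 7 to 8 and was 6 throughout in Kupffer-like macrophages of Egr2fl/fl and Lyz2Cre/+.Egr2fl/fl mice. It ranged from 7 to 9 and 6 to 7 in remaining macrophages, 7 to 9 and 8 to 9 in Ly6Chi, and 5 to 6 and 6 to 7 in Ly6Clo monocytes. Between genotypes it stayed at 2 in Kupffer cells on ND and ranged from 5 to 7 in Ly6Chi monocytes on CDA-HFD.

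The other 10 counts moved further. Members between genotypes in CDA-HFD Kupffer-like macrophages went from 0 to 1 with the stricter gate, 2 with clusters, 1 with at least 90% own hashtag and 1 without the top 1% of cells. In LAM-gated macrophages 0 became 1 with the stricter gate, and in remaining macrophages 0 became 1 with clusters and without the top 1% of cells. In Ly6Clo monocytes 1 became 3 with the stricter gate and 2 with clusters. Kupffer-like against LAM-gated macrophages went from 4 to 8 with clusters.

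Of the ratios past the fold, 4 reversed direction, here as log2. With clusters, Abca1 in Ly6Clo against Ly6Chi monocytes of the CDA-HFD-fed Lyz2Cre/+.Egr2fl/fl mouse came to -0.12, and Apoe in Kupffer cells against remaining macrophages of the ND-fed Egr2fl/fl mouse to -0.19. Fabp4 in the latter comparison came to 0.63 with at least 90% own hashtag, and in the ND-fed Lyz2Cre/+.Egr2fl/fl mouse to 0.064 without the highest Scrublet scores. In all of these the cause was not tested. Ratios that had not passed are not among the 4. With clusters, for example, Abca1 in LAM-gated against remaining macrophages of the CDA-HFD-fed Egr2fl/fl mouse went from 0.078 to -0.95, past the fold as lower.

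Leaving out of each sum the 1% of cells with the most counts of the gene was chosen after the data were seen. Among the 237 ratios it ended the calls of Fabp5 between diets in Ly6Chi monocytes of Egr2fl/fl mice, of Fabp5 in Ly6Clo against Ly6Chi monocytes of the CDA-HFD-fed Egr2fl/fl mouse, and of Fabp4 in Kupffer cells against remaining macrophages of the ND-fed Lyz2Cre/+.Egr2fl/fl mouse. Outside these it ended those of Lpl between genotypes on ND in Ly6Chi and in Ly6Clo monocytes.

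TMM factors shifted the log2 diet ratios of all genes by 0.13 to 0.28 and the genotype ratios by -0.14 to 0.02. With under 30 cells left, no value was given by clusters for the diet comparison of Kupffer-like macrophages, nor by the 90% hashtag filter for remaining macrophages of Lyz2Cre/+.Egr2fl/fl mice between diets and for Kupffer cells against remaining macrophages in both mice together.

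Depth and cell number limit what can be read: ND Kupffer-like macrophages numbered 49 and 66, and ND Ly6Chi monocytes held no Fabp4 count. Intervals cover counting error, with 1 mouse behind each value, so differences between animals cannot be told apart from those of diet or genotype. All 4 mice came from 1 pool, and no second pool was analysed here.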

Other observations

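Dendritic cells, read by their own markers, gave member levels that are not given in the report. Fabp5 was at 267.5 and 212.3 CPM on ND and 544.7 and 426.1 CPM on CDA-HFD, so its level was higher on CDA-HFD there too. Trem2 was at 5.28 and 6.47 CPM on ND and 16.4 and 20.1 CPM on CDA-HFD, and Apoe at 57.0 and 70.1 and then 213.5 and 269.3 CPM, all far below the macrophage classes. Plin2 stood at 85.2 and 94.3 CPM on ND and 81.8 and 89.75 CPM on CDA-HFD, with no order by diet.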
